A study of Zea mays with 10 samples.

Results

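MIR171 genes give rise to miR171, a conserved plant microRNA that directs cleavage of mRNAs for GRAS transcription factors. In these maize data the family consisted of 4 precursor loci, MIR171d, MIR171f, MIR171h and MIR171j, taken as every row named zma-MIR171 plus a letter. They were 4 of the 25460 features in the prophase I anther table, which also listed 44 other miRNA loci. The prophase I male germ cell table listed 2 of them, MIR171d and MIR171f, among 22786 features and beside 24 other miRNA loci. MIR171h and MIR171j have no row there, so their levels in germ cells were not analysed here. The premeiotic anther table listed 0 miRNA loci. A reference gene table of another maize assembly names 14 MIR171 loci, and all 4 listed loci were among them.

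The study asks which maize transcripts are targets of phased small interfering RNAs in anthers. The groups used here are prophase I male germ cells of ms28 and of B73, and whole prophase I anthers of ms28 and of B73, with 2 libraries in each of the 4 groups. B73 is the inbred line of the maize reference genome, and the 2 tables head its columns WT. The mutant ms28 is male sterile and is known as a mutant of a gene for an Argonaute protein. The labels do not say whether ms28 was bred into B73, so differences between the lines beyond ms28 cannot be told apart from its effect. Plants grew in a field or a greenhouse, and which library came from which is not given. Separate plants are not stated for the paired libraries of any group, so every SD, SE and p-value measures the spread between libraries, which may be technical. Gene models carry IDs only, and 0 of 43789 matched the reference gene table. GRAS targets of miR171, genes of miRNA processing and markers of anther cell types were therefore not looked up, and neither the tissue labels nor the ms28 gene could be checked.

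A plant miRNA gene is transcribed into a long primary transcript with a foldback, from which a Dicer-like enzyme cuts the mature miRNA. That miRNA is then loaded into an Argonaute protein. The targets of miR171 are best known from Arabidopsis, where they are GRAS factors of the HAIRY MERISTEM group that maintain meristems and act in branching. What was measured here is RNA at the precursor loci and not mature miR171. Values are TPM, length-corrected shares that add up to nearly the same total in every library, so the depth behind each value is unknown. In whole anthers, fewer cells of a type and less RNA per cell cannot be told apart.

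The loci were chosen by name, but the family was put forward with earlier results of these data known, in which MIR171f was lower in ms28 anthers and in B73 germ cells. Values of ms28 against B73 are therefore given as a description, with no p-value printed. Where the fit called a member is stated only beside the share of all features it called. All log2 values are on the log2(TPM + 1) scale, where changes of low features are compressed, and a feature is called at a Benjamini-Hochberg adjusted p under 0.05 in the limma fit of all 8 libraries.

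MIR171f separated the lines in anthers. It stood at 0 and 4.17 TPM in ms28 anthers, against 47.0 and 56.1 TPM in B73 anthers. The lowest B73 library was 11.3-fold above the highest ms28 library, and the groups did not overlap. Lower values without overlap in ms28 were common, at 64.3% of all anther features. By rank, MIR171f lay at percentiles 0.795 and 47.5 of all anther features in ms28, against 85.3 and 89.3 in B73. Among the 48 miRNA loci of the table it ranked 47 and 20 in ms28 anthers, against 13 and 9 in B73 anthers. It was thus near the middle of all features in 1 ms28 library and listed at 0 in the other, while it was among the more abundant precursors in both B73 libraries.

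MIR171j, a minor member by level, lay on the same side, as did 64.3% of all anther features. It read 0.110 and 0.35 TPM in ms28 anthers, against 2.06 and 1.99 TPM in B73 anthers. The lowest B73 library was 5.69-fold above the highest ms28 library, although all 4 values were low. It passed the filter on low values (1 TPM or more in at least 2 libraries) through its B73 libraries alone.

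MIR171d did not separate the lines. It stood at 14.6 and 26.3 TPM in ms28 anthers, against 79.3 and 18.8 TPM in B73 anthers. Both ms28 values lie between or below the B73 values, and the groups overlap because B73 replicate 2 lay below ms28 replicate 2. MIR171h read 0.180 and 0.190 TPM in ms28 anthers, against 1.81 and 0.10 TPM in B73 anthers. Its groups overlap as well, and it did not pass the filter, since only 1 anther library reached 1 TPM.

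In germ cells MIR171f was low in both lines, while MIR171d lay nearer the middle of all features. MIR171d stood at percentiles 31.7 and 46.2 of germ cell features in ms28, against 39.9 and 53.8 in B73. For MIR171f these were 0.948 and 0.599 in ms28, against 7.69 and 26.3 in B73. MIR171d read 2.48 and 5.58 TPM in ms28 germ cells, against 3.25 and 8.08 TPM in B73 germ cells. Those groups overlap. MIR171f stood at 0 and 0 TPM in ms28 germ cells, against 0.212 and 1.58 TPM in B73 germ cells. These values do not overlap, and 27.9% of the germ cell table was likewise lower in both ms28 libraries. An exact 0 in a table without counts is a listed value and not a measure of absence. The plot of the 4 loci by library shows both patterns.

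**Figure D1:**
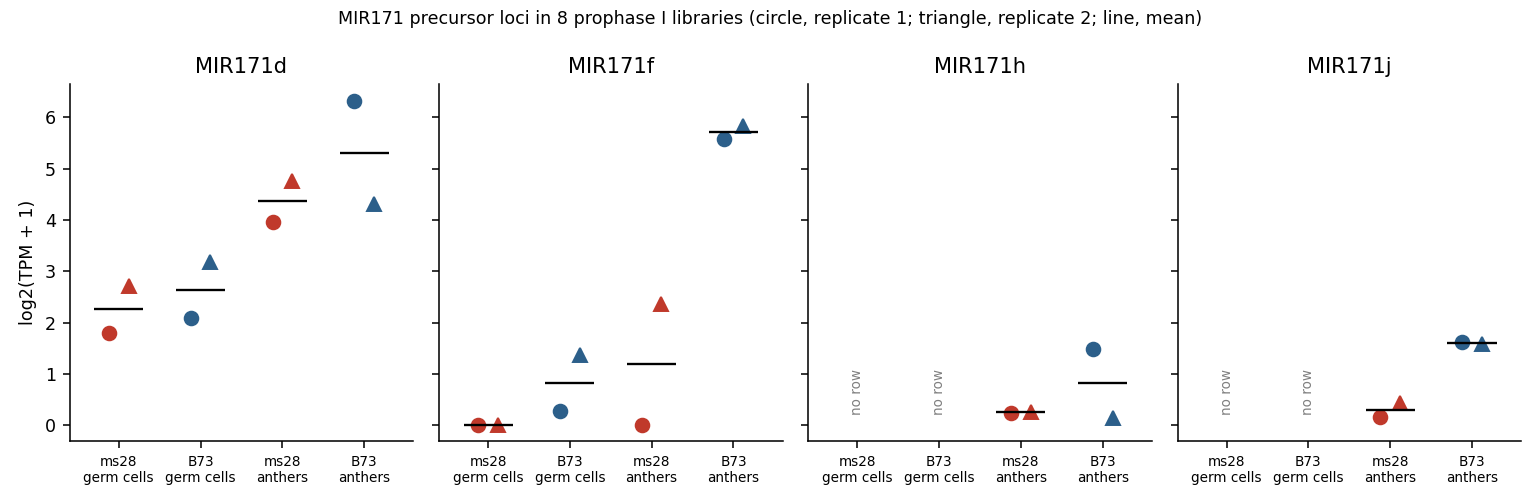
Level of each MIR171 precursor locus, as log2(TPM + 1), in ms28 and B73 germ cells and in ms28 and B73 anthers at prophase I. Circles are replicate 1, triangles replicate 2 and lines the mean of the 2. In anthers the ms28 points of MIR171f and MIR171j all lie below the B73 points, as for 64.3% of all anther features. The points of MIR171d and MIR171h overlap.

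The summed precursor RNA of the family was 14.9 and 31.0 TPM in ms28 anthers, against 130 and 76.9 TPM in B73 anthers. MIR171d made up most of it in ms28 anthers, with 98.1 and 84.8% of the sum, against 60.9 and 24.4% in B73 anthers. In germ cells, with 2 loci listed, its share was 100 and 100% in ms28, against 93.9 and 83.7% in B73. A high MIR171d share was thus not particular to ms28. MIR171f made up 0 and 13.5% in ms28 anthers, against 36.1 and 72.9% in B73 anthers. The ratio of MIR171f to MIR171d within a library, which does not depend on the scaling of that library, was 0 and 0.159 in ms28 anthers, against 0.593 and 2.99 in B73 anthers. The 2 B73 anther libraries thus disagree on which locus leads, but both hold more MIR171f per MIR171d than either ms28 library. In germ cells the same ratio was 0 in both ms28 libraries, against 0.0652 and 0.195 in B73.

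**Figure D2:**
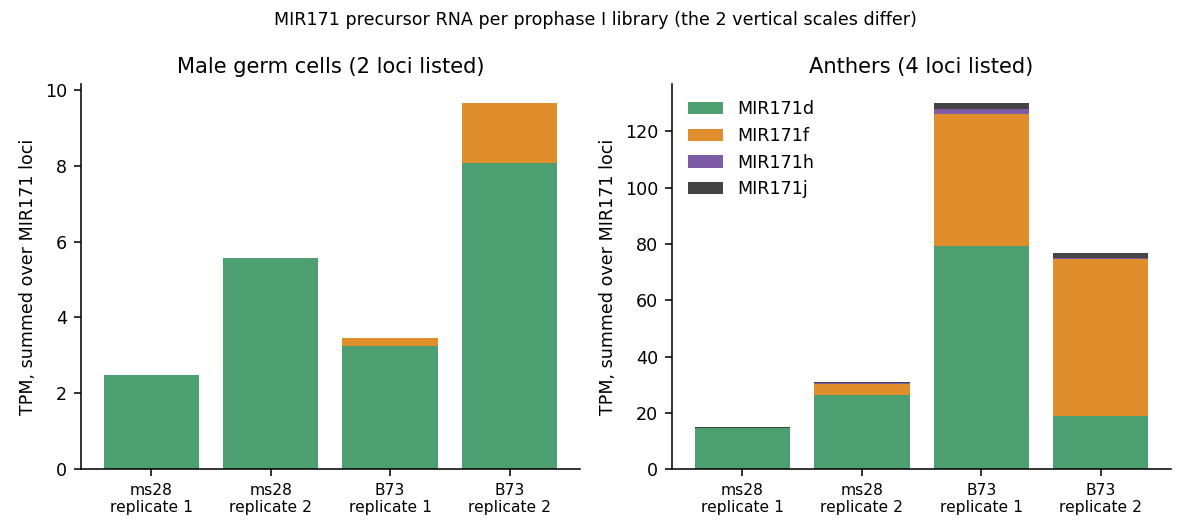
TPM of the MIR171 loci stacked to their sum in each prophase I library, for germ cells (2 loci listed) and anthers (4 loci listed). The vertical scales differ between the panels. MIR171d fills most or all of the ms28 bars and of the B73 germ cell bars, and MIR171f is a large part of both B73 anther bars.

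Whole libraries also differed. In anthers the median feature read 4.45 and 4.66 TPM in ms28, against 8.27 and 6.65 TPM in B73. In germ cells it read 6.92 and 6.86 TPM in ms28, against 6.0 and 6.6 TPM in B73. The median log2 difference of ms28 minus B73 over the 20892 features tested was -0.48 in anthers and 0.07 in germ cells. Set against the median feature of its own library, MIR171f stood at 0 and 0.895 times that median in ms28 anthers, against 5.68 and 8.43 times in B73 anthers. MIR171d stood at 3.28 and 5.64 times the median in ms28 anthers, against 9.59 and 2.82 times in B73 anthers. MIR171j stood at 0.0247 and 0.0751 times the median in ms28 anthers, against 0.249 and 0.299 times in B73 anthers. On this scale too MIR171f and MIR171j were lower in both ms28 libraries with no overlap, as was 17.7% of the whole anther table. The lines overlapped for MIR171d.

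In the 8-library fit the anther difference of ms28 minus B73 was -4.52 for MIR171f (SE 0.67) and -0.95 for MIR171d (SE 0.67). With each library centred on its median tested feature the differences were -3.92 and -0.34. The fit called MIR171f and not MIR171d, so 1 of the 2 tested members was called lower, where 7.31% of all tested features were called lower. After centring, 0.584% of features were called lower and 0.886% higher. Since the family was put forward for this difference, nothing is read from that count.

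MIR171j, absent from the joint fit, had a difference of -1.31 (SE 0.20) when the anther table was fitted by itself and was not called. In that fit 0.32% of 20946 features were called, and neither MIR171d nor MIR171f was among them. With centring the MIR171j difference became -0.70. Non-overlapping lower values in ms28 were common, at 64.3% of the whole anther table. MIR171f and MIR171j, 2 of the 4 members, were in that class, and so were 14 of the 44 other miRNA loci, while 4 of the 44 were higher in both.

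The call of MIR171f in anthers ended without either ms28 germ cell library, which enters that comparison only through the shared estimate of spread. The difference was -3.34 without ms28 anther replicate 1 and -5.71 without replicate 2. For MIR171d, B73 anther replicate 1 decided the value. The difference was 0.06 without that library and -1.96 without B73 anther replicate 2.

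In germ cells the difference of ms28 minus B73 was -0.82 for MIR171f (SE 0.67) and -0.38 for MIR171d (SE 0.67). The fit called neither, where 14.3% of features were called. MIR171f passed the filter on low values only through its anther libraries. In the germ cell table alone it did not pass, and MIR171d was the only member tested. MIR171f had little room to be lower, because its B73 germ cell values were already at or under 1.58 TPM. The MIR171d difference was 0.17 without B73 germ cell replicate 2 and 0.08 without ms28 germ cell replicate 1, so its sign depended on which library was left out.

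The interaction, which asks whether the effect of ms28 differed between germ cells and anthers, was called for 1 of the 2 members, MIR171f, where 14.4% of all features were called. That call ended with a pseudocount of 0.1 or 0.5, with quantile normalization and with centring, which left 2.16% of features called, and also without any single germ cell library, B73 anther replicate 1 or ms28 anther replicate 1. The result too was known when the family was put forward.

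Each line was then tested for a difference between isolated germ cells and whole anthers, a comparison whose result was known beforehand for MIR171f in B73. Tissue and table cannot be told apart here, because each tissue has its own deposited table. MIR171d was lower in germ cells in both lines. In ms28 germ cells it averaged 4.03 ± 2.19 TPM, against 20.4 ± 8.25 TPM in ms28 anthers (SD, n = 2 each). The log2 difference was -2.11 (SE 0.67, adjusted p = 0.026 in the limma fit), and both germ cell libraries lay below both anther libraries, as for 34.3% of features. In B73 germ cells it averaged 5.67 ± 3.42 TPM, against 49.0 ± 42.8 TPM in B73 anthers (SD, n = 2 each). The log2 difference was -2.68 (SE 0.67, adjusted p = 0.0073 in the limma fit), again with no overlap, as for 49.4% of features.

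The call in B73 ended without B73 germ cell replicate 1 (-2.13, adjusted p = 0.063 in the limma fit). B73 anther replicate 1 moved the size, since the difference was -1.67 without it. The call in ms28 ended without ms28 anther replicate 2 (-1.70, adjusted p = 0.129) or ms28 germ cell replicate 1 (-1.65, adjusted p = 0.158).

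MIR171f stood at 0 and 0 TPM in ms28 germ cells, against 0 and 4.17 TPM in ms28 anthers. The log2 difference there was -1.19 (SE 0.67, adjusted p = 0.165 in the limma fit). The groups share the value 0. Without ms28 anther replicate 1, which leaves 1 library in that group, the difference was -2.37. Without ms28 anther replicate 2 every remaining ms28 value was 0 and so was the difference, so it rests on that 1 library. In B73, MIR171f stood at 0.212 and 1.58 TPM in germ cells, against 47.0 and 56.1 TPM in anthers. The lowest anther library was 29.8-fold above the highest germ cell library. The log2 difference was -4.89 (SE 0.67). The comparison of lines in anthers and this one share the B73 anther libraries.

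Counted together, 1 of the 2 tested members was called lower in ms28 germ cells than in ms28 anthers, where 21.5% of all features were called lower and 35.2% higher. In B73 both were called lower, where 41.2% of features were called lower and 27% higher. With centring these shares became 30.1% lower and 29% higher in ms28, and 31.5% lower and 36.7% higher in B73, and the same counts of members were called. The other miRNA loci were also mostly lower in germ cells. Of 23 in the fit, 14 were called lower and 3 higher in ms28, with a median difference of -1.50 against 0.19 for all features. In B73, 17 were called lower and 2 higher, with a median of -2.08 against -0.36 for all features. In ms28, 6 of the 23 had a lower difference than either MIR171 locus, from -6.11 for MIR399d of the phosphate starvation family to -2.35 for MIR398b. In B73 no other miRNA locus had a lower value than MIR171f, and the next was MIR399b (-3.71).

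**Figure D3:**
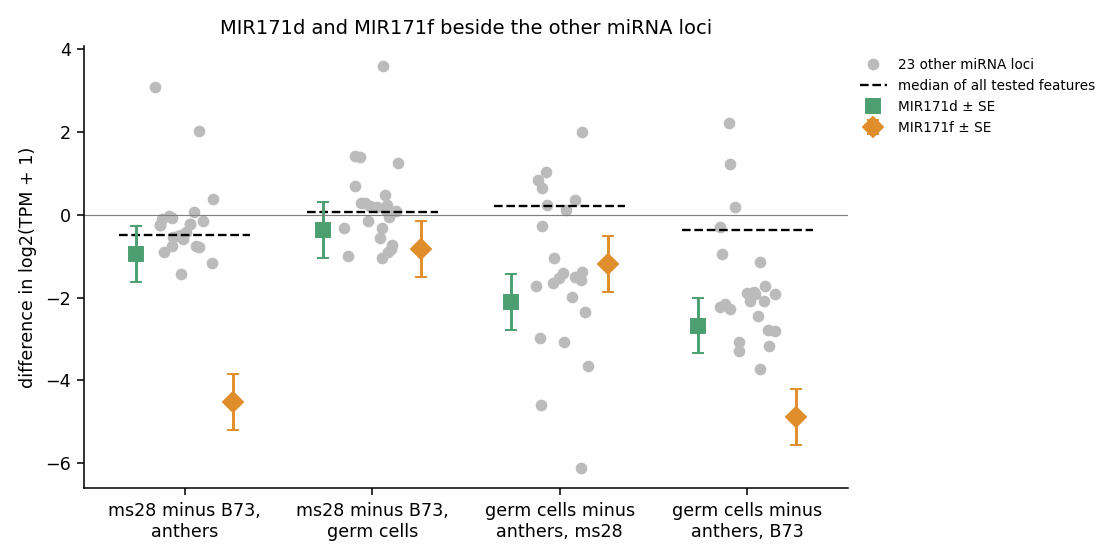
Difference in log2(TPM + 1) of MIR171d (squares) and MIR171f (diamonds), with SE from the limma fit, beside 23 other miRNA loci (grey points) in 4 comparisons. Dashed lines mark the median of all tested features. MIR171f lies below every other miRNA locus for ms28 minus B73 in anthers (-4.52) and for germ cells minus anthers in B73 (-4.89), but within their range in the other comparisons.

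For ms28 minus B73 the median of the other miRNA loci lay near that of all features, though single loci ranged widely. In anthers 2 of 23 were called higher and 1 lower, with a median difference of -0.26, and values ran from -1.44 for MIR167d to 3.06 for MIR399d. In germ cells 2 were called higher and 0 lower, with a median of 0.12. Germ cell values ran from -1.04 for MIR398b to 3.58 for MIR399b, and both MIR171 loci were inside that range.

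The gap between the 2 libraries of a group differed between the members. In B73 anthers MIR171d was 2.02 higher in replicate 1 than in replicate 2 on the log2 scale, and 1.47% of features differed by at least as much between those libraries. MIR171f was 0.25 lower in replicate 1, a gap that 58.5% of features reached. Of the 23 other miRNA loci, 16 were higher in B73 anther replicate 1, with a median gap of 1.12 against 0.21 for all features. MIR171d moved with those loci between the 2 libraries and MIR171f did not. In ms28 anthers MIR171f was 2.37 lower in replicate 1 than in replicate 2, a gap that 0.225% of features reached.

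MIR171d and MIR171f had a Pearson correlation of 0.78 over the 8 libraries, and most of the spread they share is between germ cells and anthers. The miRNA loci most like MIR171d in log2(TPM + 1) were MIR2275c (r = 0.95), MIR159k (r = 0.93) and MIR159j (r = 0.92). MIR2275c belongs to a family known to start production of the longer reproductive phasiRNAs, and miR159 targets GAMYB factors known for their role in the tapetum. The MIR159 loci have near-identical copies, so their levels are uncertain where reads were shared among copies. MIR2275c read 762 and 1262 TPM in ms28 anthers, against 3716 and 1318 TPM in B73 anthers, so B73 replicate 1 was the highest library for both loci. The gene models most like MIR171d were Zm00001d019059 (r = 0.99) and Zm00001d018947 (r = 0.98). Correlations of 0.9 or more with MIR171d were not rare, at 3.87% of 13296 candidate features.

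For MIR171f the most alike miRNA loci were MIR2275c (r = 0.83), MIR167g (r = 0.72) and MIR528a (r = 0.68), none as close as those of MIR171d. The closest gene models were Zm00001d031971 and Zm00001d002035 (r = 0.99 each). Zm00001d031971 read 0.0800 and 9.03 TPM in ms28 anthers, against 298 and 212 TPM in B73 anthers. In germ cells it read 0 and 0.564 TPM in ms28, against 0.0408 and 2.73 TPM in B73. Zm00001d002035 read 0.200 and 1.47 TPM in ms28 anthers, against 19.9 and 24.9 TPM in B73 anthers. Both models share with MIR171f the higher ms28 anther replicate 2 and the higher B73 germ cell replicate 2. Of the candidates, 1.73% reached 0.9 with MIR171f. These correlations are over 8 libraries in 4 groups and describe likeness only.

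**Figure D4:**
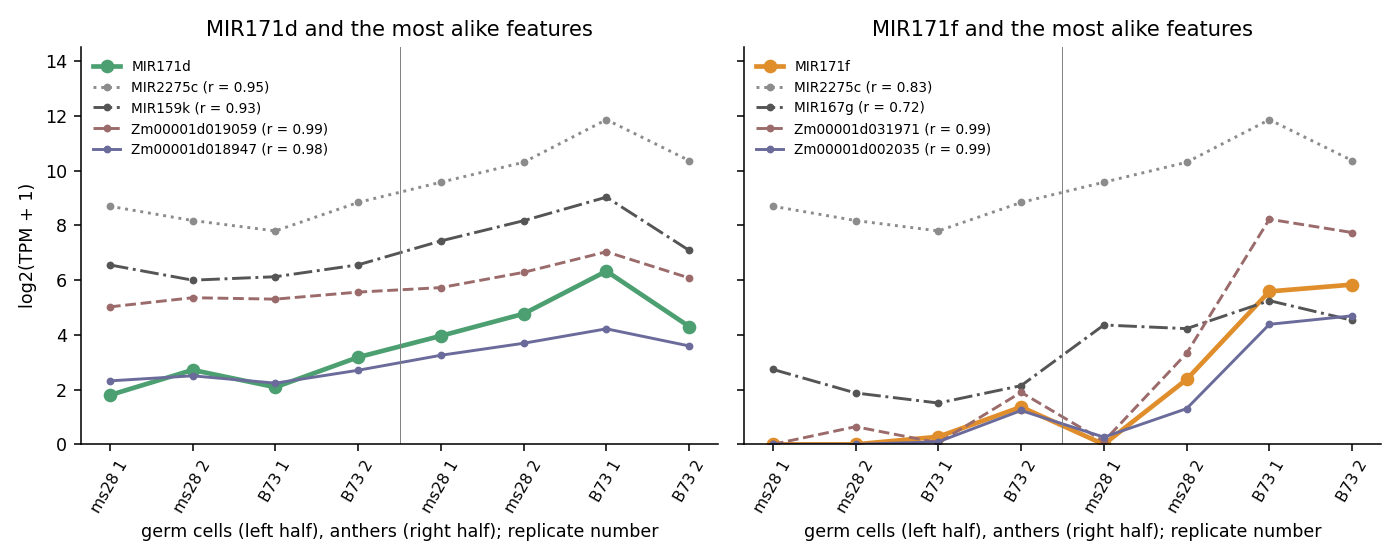
Levels, as log2(TPM + 1), of MIR171d (left) and MIR171f (right) with the 2 miRNA loci and 2 gene models whose values correlate most with each over 8 libraries. Lines join libraries only to guide the eye. MIR171d and MIR2275c both peak in B73 anther replicate 1, whereas MIR171f and its closest gene models are high in both B73 anther libraries.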

How the data were processed

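RNA was measured by a Smart-seq type method, which does not mark the strand, so reads of a locus and of its antisense strand are counted together. Per the submitters' processing notes, reads were handled with DESeq2, featureCounts 2.0.1, Cufflinks, HISAT2 2.2.1 and Trimmomatic 0.33, listed with no role, and the build was B73 RefGen_v4. The prophase I values the authors deposited were read as TPM: no unit is named, each column summed to between 99.1 and 99.4% of 1000000, and the steps between low values differ between features. The values of the other deposited table, of another unit with no name, were not used. Columns were assigned by genotype and replicate in the header lines (WT read as B73) and by the table names.

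One limma-trend model (limma 3.58.1, R 4.3.3) took all 8 prophase I libraries on log2(TPM + 1), with a mean for each group. Of 22402 features in both tables it used the 20892 that reached 1 TPM in 2 or more libraries. MIR171j was fitted in the anther table alone (20946 features). The fit was also run on simulated data in which every feature had the same spread. That setting is unlike these loci, so nothing is read from it. Summaries and plots used pandas 2.3.3, numpy 2.4.6, matplotlib 3.10.9 and Python 3.11.15.

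Members, lists and tests were chosen with earlier results of these data known. All MIR171 rows are named. The 3 other miRNA loci and 2 gene models with the highest Pearson correlation to MIR171d and to MIR171f are named too, among tested features averaging 10 TPM or more in 1 group. Alternatives were other pseudocounts (0.1 and 0.5), no filter, 2 other scalings, robust eBayes, each table alone, a stricter threshold, the replicate block and each library left out.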

Additional observations from a re-analysis of the deposited data

Results flagged for a closer look

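MIR171f was called in the interaction term of the limma fit, which is what brings it here. The interaction, germ cells minus anthers, was 3.70 on the log2 scale (SE 0.95), and 14.4% of all features were called in that term. The family was put forward with this result known, so it is a description. MIR171f stood at 0 and 0 TPM in ms28 germ cells, against 0.212 and 1.58 TPM in B73 germ cells. On the log2(TPM + 1) scale its germ cell difference could therefore not go below -0.82. With pseudocounts of 0.5 and 0.1 that difference was -1.28 and -2.85. The interaction kept its sign and a similar size with both, but its SE was larger and it was no longer called. The loss of the call is thus not a loss of the difference. With the germ cell difference at this floor, any larger fall in anthers gives a positive interaction, so a differing effect of ms28 is not read from it. The interaction of MIR171d was 0.57 (SE 0.94) and was not called.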

How the results depend on the processing

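MIR171f kept its direction for ms28 minus B73 in anthers under every alternative run, from -6.30 with a pseudocount of 0.1 to -3.34 without ms28 anther replicate 1, and for germ cells minus anthers in B73, from -6.15 to -4.34. The number of the 2 members called in the anther comparison of lines, 1 as reported, was 0 at an adjusted p under 0.01 and in the anther table alone, and ran from 0 to 2 when 1 library was left out. For the interaction the count of 1 became 0 with a pseudocount of 0.1 or 0.5, with centring, with quantile normalization and at an adjusted p under 0.01, and ran from 0 to 1 with 1 library left out. For germ cells minus anthers the count changed in both lines when single libraries were left out. At an adjusted p under 0.01 it was 0 in ms28, where 8638 of 20892 features were called. At that threshold it stayed at 2 in B73, where 11164 were called. In the germ cell comparison of lines it was 0 throughout, and MIR171j was called in no setting. The lone library of a group is then assumed to vary like the other groups. The cause of these changes was not tested, beyond the smaller number of libraries.

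The replicate block left each count of members as reported (1 and 0 for the lines in anthers and germ cells, 1 for the interaction, 2 and 1 for the tissues in B73 and ms28). Deviations of same-numbered libraries correlated between -0.08 and 0.14 over the 6 pairs of groups, so the numbers are not taken to pair the libraries. Over all features, calls in the anther comparison of lines were 1633 as reported, 1046 with the block, 307 with centring, 318 with quantile normalization, 72 at 0.01 and 67 in the anther table alone, where the block left 0 (5288 at an unadjusted p under 0.05). Those of the interaction were 3009 as reported, 1870 with the block, 452 with centring, 221 with quantile normalization and 103 at 0.01, and those of germ cells between lines were 2995 and 591 at 0.01. With 1 library left out these ran from 65 to 4448, 0 to 4586 and 310 to 4075. With Spearman in place of Pearson correlation MIR2275c ranked 1 for both loci, but the likeness of the others to MIR171f was weaker: MIR167g ranked 4 and MIR528a 8 of 15 miRNA loci (rho = 0.56 and 0.49), and Zm00001d002035 ranked 34 and Zm00001d031971 198 of 13280 gene models (rho = 0.93 and 0.85). For MIR171d, MIR159k ranked 2, MIR159j 5, Zm00001d019059 1 and Zm00001d018947 5. Depth is unknown, so how many reads stand behind the low values of MIR171h and MIR171j, and behind a listed 0, cannot be given.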
